A study of Mus musculus with 3 samples.

Results

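Barcodes nearly without mitochondrial RNA were a small class in each of 3 single-cell libraries of the early mouse embryo. They were chosen by 2 values of each barcode: between 1500 and 8500 detected genes (7500 at most in embryo 2), and under 0.5% of the unique molecular identifiers (UMIs, each counting 1 captured molecule) from the 13 messages of the mitochondrial genome, whose symbols begin with mt-. The rule found 573 of 23533 barcodes, 334 of 6579 in embryo 1, 160 of 8621 in embryo 2 and 79 of 8333 in embryo 3. They are called low-mitochondrial barcodes below, and the reference barcodes are the 21558 with the same range of genes and 1 to 10% mt- UMIs. The study itself set such clusters aside in its quality control. The rule's question was whether the low-mitochondrial barcodes resemble nuclei stripped of cytoplasm, and which lineages they come from.

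The 3 embryos were wild type, of the strain C57BL/6 x 129 SvEv, harvested at embryonic day 8 and chosen at 0 to 1 somite by the protocol, though 1 field of the labels allows up to 2 somites, and male by the study's genotyping. Extraembryonic tissue was removed, each whole embryo was dissociated with TrypLE, an enzyme that frees cells from each other, and 1 droplet library per embryo was made with the 3' version 3 chemistry of 10x Genomics. No treatment or genotype was compared, all embryos share this handling, and the values come from barcodes within each embryo. Of 57 barcode sequences found in more than 1 library, low-mitochondrial barcodes carried 4 in embryo 1, 2 in embryo 2 and 0 in embryo 3.

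Messages of the mitochondrial genome stay inside mitochondria, which lie in the cytoplasm, so a nucleus freed of its cytoplasm carries little of them. Such a nucleus is known to be rich in RNAs that are kept in the nucleus, of which Malat1, a long noncoding RNA of nuclear speckles, is the most widely used marker. In the cytoplasm, messages for secreted and membrane proteins are translated at the endoplasmic reticulum (ER), to which a hydrophobic segment of the new protein directs them, whereas most other messages are translated on free ribosomes.

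The values of the rule are described first, with no test. The low-mitochondrial barcodes held a median of 0.0763% mt- UMIs in embryo 1, 0.0726% in embryo 2 and 0.0855% in embryo 3, against 3.43%, 2.82% and 3.09% in the reference barcodes. Between 0.5 and 1% lay 17, 6 and 14 barcodes, so that few stood between the classes. Just inside the threshold were barcodes of embryo 1 with 0.4947 and 0.4996% and just outside it ones with 0.5484 and 0.5571%, of 3100 to 13949 UMIs. The highest value inside was 0.4742% in embryo 2 and 0.4736% in embryo 3, and the lowest outside was 0.5203% and 0.5553%. All 13 mt- messages were scarcer, by a mean of 19.4-fold for mt-Atp8 to 38.2-fold for mt-Nd5, which encodes a subunit of respiratory complex I. These 2 rest on only 5, 1 and 2 and on 45, 12 and 7 UMIs in the low-mitochondrial barcodes, so the ends of the range are imprecise. Summed, mt- messages gave 11.3, 6.82 and 8.97 UMIs per low-mitochondrial barcode against 1229, 599 and 730 per reference barcode.

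**Figure D1:**
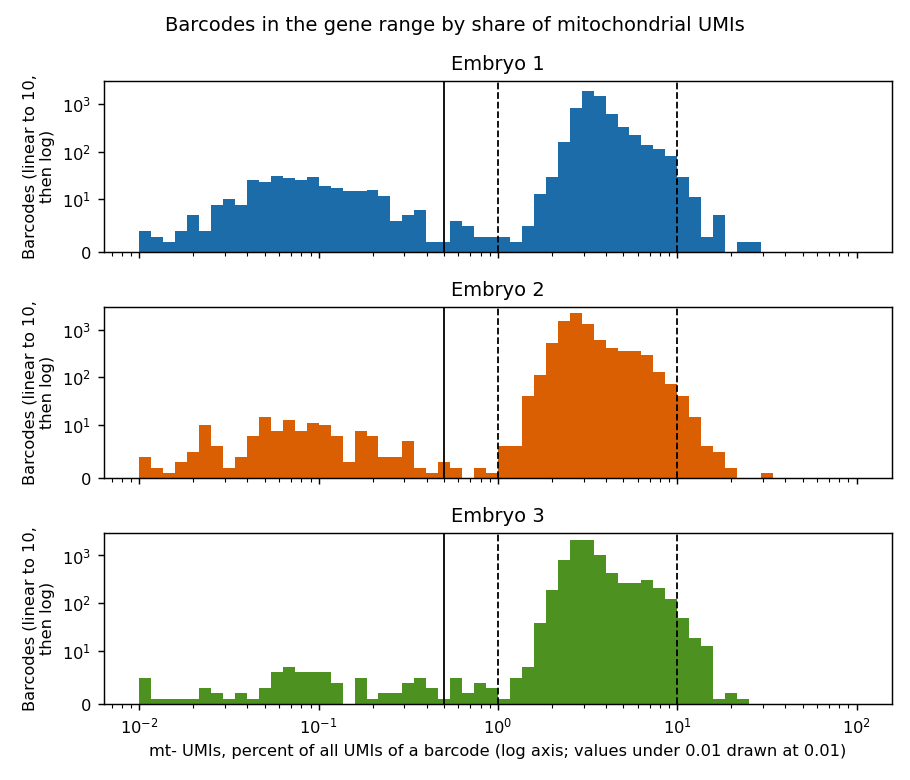
Number of barcodes in the gene range (vertical axis, linear to 10 and then logarithmic) by mt- UMIs as percent of all UMIs (logarithmic axis), 1 panel for each embryo. The solid line is the threshold of 0.5% and the dashed lines bound the reference at 1 and 10%; the 573 low-mitochondrial barcodes form a separate low hill, with 37 barcodes between 0.5 and 1%.

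The low-mitochondrial barcodes were also shallower. Their median was 10260, 5496 and 6872 UMIs in embryos 1, 2 and 3, which was 0.389 ± 0.0272 (SD, n = 3 embryos) of the reference medians, and their median number of genes was 2870, 2003 and 2236. Number of genes was part of the rule. When all barcodes were thinned to 3000 nuclear-gene UMIs, the median was 1354, 1362 and 1367 genes against 1486, 1467 and 1463, so at equal depth they still showed fewer genes in each embryo. Doublet scores were low, with 0.599, 1.25 and 2.53% of low-mitochondrial barcodes among the top 6% of scores against 6.33, 6.10 and 6.04% of reference barcodes. Levels below are counts per 1000000 nuclear-gene UMIs (CPM), without mt- messages, in UMIs summed over the barcodes of a class in 1 embryo.

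Malat1 (chr19:5795690-5802672, GRCm38, minus strand, annotated as a long intergenic noncoding RNA) was lower in the low-mitochondrial barcodes, not higher. Its level was 1159, 858 and 1280 CPM in embryos 1, 2 and 3 against 2360, 2163 and 2201 CPM in the reference barcodes. The groups did not overlap, and the log2 fold change was -0.89 ± 0.12 (SE, n = 3 embryos a class, adjusted p = 0.00175, edgeR quasi-likelihood test). Per barcode, the mean was 12.6, 5.19 and 8.68 Malat1 UMIs against 75.4, 38.1 and 44.9, a ratio of 0.166 ± 0.0286 (SD, n = 3), while all nuclear-gene UMIs had a ratio of 0.339 ± 0.00561. The exact two-sided permutation test over embryos gave p = 0.1 for the UMIs per barcode, the smallest it can give for 3 against 3. A barcode in this class therefore held less Malat1 both in number of molecules and as a share of its RNA.

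The low-mitochondrial barcodes were not alike in Malat1. Of them, 65 of 334 in embryo 1 (19.5%, exact 95% interval 15.4 to 24.1%), 66 of 160 in embryo 2 (41.2%, 33.5 to 49.3%) and 31 of 79 in embryo 3 (39.2%, 28.4 to 50.9%) had no Malat1 UMI at all. These intervals cover counting error only. Among reference barcodes the shares were 0.0865, 0.0629 and 0.0255%, and at an equal depth of 3000 nuclear-gene UMIs they were 31.4, 49.1 and 48.1% against 1.12, 2.01 and 1.42% (1 low-mitochondrial barcode of embryo 2 and 2 reference barcodes of embryo 3 were shallower and left out). At the other end, 140, 50 and 24 of them held Malat1 at or above the reference's 10th percentile, which was 1110, 935 and 995 CPM. The class thus ran from barcodes without detected Malat1 to barcodes within the range of the reference.

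**Figure D2:**
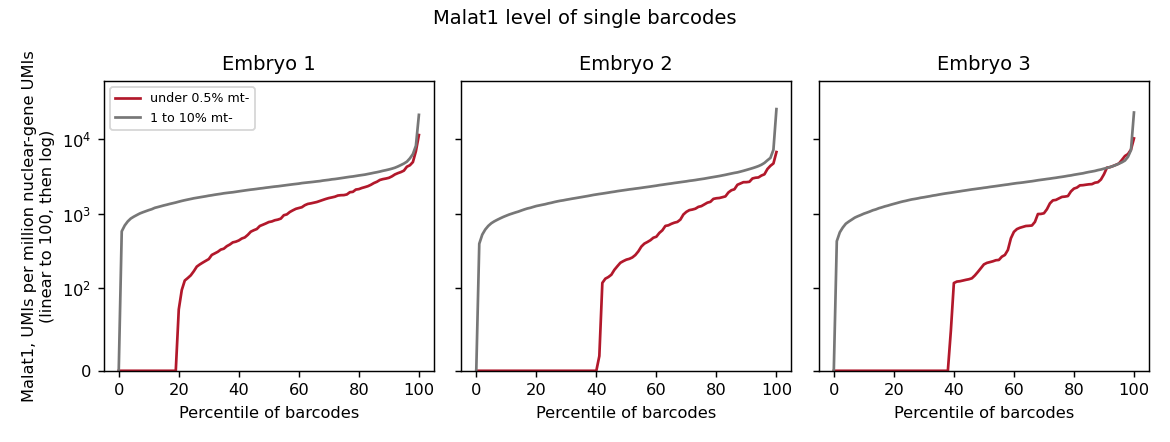
Malat1 in single barcodes, in CPM of nuclear-gene UMIs (vertical axis, linear to 100 and then logarithmic), at each percentile of the barcodes of a class, 1 panel for each embryo. The red line of the low-mitochondrial barcodes lies at 0 up to the 19.5, 41.2 and 39.2% without a Malat1 UMI and stays under the grey reference line at nearly all percentiles in embryos 1 and 2 and up to the 90th in embryo 3.

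When the class was split by Malat1 into barcodes with none, with some below that 10th percentile, and at or above it, the 11 other nuclear long noncoding RNAs on a list of 15 (12 were in the files) were most abundant in the upper group. Their summed level, which the split did not use, was 44.3, 36.9 and 50.9 CPM in embryos 1, 2 and 3 without Malat1 (27, 15 and 10 UMIs). It was 138, 111 and 46.2 CPM (221, 30 and 8 UMIs) in the middle group, and 425, 464 and 1136 CPM (605, 135 and 189 UMIs) in the upper group. In embryo 3 the middle group was not above the group without Malat1. The reference barcodes had 884, 822 and 930 CPM, so only the upper group of embryo 3, which is 24 barcodes, stood above its reference. Chromatin regulators with long transcripts also stood higher from group to group in each embryo, from 1270, 946 and 850 CPM without Malat1 through 1872, 1600 and 1310 CPM to 2683, 2051 and 2988 CPM, and splicing regulators from 4678, 4094 and 3899 CPM through 5603, 4966 and 4443 CPM to 6421, 6160 and 6475 CPM. These are summed levels, given with no test. ER and secretory genes, described below, did not follow the split: their sum was 4940, 5167 and 5594 CPM without Malat1 and 5275, 5253 and 5651 CPM in the upper group, both under the 8232, 8297 and 7775 CPM of the reference. Barcodes with as much Malat1 as reference barcodes thus still had little ER message, with mt- medians of 0.0928, 0.114 and 0.0948%. The groups also differed in lineage calls, described below: extraembryonic endoderm took 23.1, 64.1 and 54.8% of the calls without Malat1 and 0.714, 8.70 and 21.7% in the upper group, and definitive endoderm 40.0, 3.12 and 19.4% and 50.7, 45.7 and 39.1%. The part of lineage in the split was not tested.

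Malat1 did not rise steadily with the share of mt- UMIs inside the class. Its median level in the bins under 0.05%, from 0.05 to 0.1%, from 0.1 to 0.2% and from 0.2 to 0.5% was 385, 787, 770 and 2021 CPM in embryo 1, on 89, 126, 79 and 40 barcodes. It was 0, 301, 723 and 680 CPM in embryo 2, on 50, 52, 35 and 23 barcodes, and 124, 131, 901 and 178 CPM in embryo 3, on 21, 25, 16 and 17 barcodes. In the few barcodes from 0.5 to 1%, outside the rule, it was 3548, 2929 and 3014 CPM, above the 2089, 2400 and 2123 CPM of those from 1 to 2%.

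Lineage was read from genes that define 16 clusters of the reference barcodes, without any gene of the marker lists. Reference barcodes called the same way at the same depth went to their own cluster in 86.5, 88.1 and 84.5%. A further 34, 655 and 422 reference barcodes had under 50 UMIs of calling genes and are not in the shares. Of 1340 in the erythroid-like cluster, 814 could be called. The shares also leave out 1 reference cluster mostly of high doublet scores, whose best marker list was extraembryonic endoderm. Of the low-mitochondrial barcodes, 334, 150 and 77 could be called, while 0, 10 and 2 had under 50 UMIs of calling genes. Both kinds of endoderm, the layer that forms gut and yolk sac lining, made up a larger share of them than of the reference: 45.8, 61.3 and 62.3% against 12.4, 21.7 and 16.5% of reference barcodes. That is 56.5 ± 9.27% against 16.9 ± 4.65% (SD, n = 3), with no overlap and an exact permutation p of 0.1, the smallest possible (0.213 adjusted over 17 calls).

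Definitive-endoderm-like calls, the future gut lining, made up 39.5, 22.7 and 27.3% (132, 34 and 21 barcodes) against 8.05, 6.73 and 4.77% of the reference. The share was higher in 3 of 3 embryos, by 4.67 ± 1.19 times (exact permutation p = 0.1). Extraembryonic-endoderm-like calls, the visceral and yolk sac endoderm, made up 6.29, 38.7 and 35.1% (21, 58 and 27 barcodes) against 4.36, 15.0 and 11.7%. This share was higher within each embryo but overlapped between the classes (exact permutation p = 0.3), since embryo 1 had few of these cells in both.

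Several other lineages were present in shares that overlapped between the classes over the 3 embryos. Neural-plate-like calls were 14.7, 6.00 and 7.79% against 17.3, 10.2 and 11.4%, presomitic-mesoderm-like calls 15.9, 3.33 and 3.90% against 11.4, 6.73 and 5.79%, and caudal-epiblast-like calls 6.89, 9.33 and 2.60% against 9.61, 8.69 and 6.25%. Within each embryo the neural-plate-like share was 0.846, 0.589 and 0.685 of the reference share, and the mesenchyme-like share 0.373, 0.989 and 0.188, lower in 3 of 3 embryos with no test of the pairs. Cardiac and pharyngeal mesoderm was scarce, with 6 of 334, 0 of 150 and 0 of 77 calls, and 0 allows a share of up to 2.43 and 4.68% (exact 95% limits), against 6.54, 6.95 and 5.01% of the reference. The reference cluster 0, left unnamed and led by Pcdh19, Aldh1a2 and Meox1, gave 4, 1 and 0 calls (1.20, 0.667 and 0% against 9.01, 7.99 and 11.9%). Paraxial mesoderm gave 1.20, 0 and 2.60% against 9.11, 4.60 and 4.65%, allantois 2.99, 2.67 and 2.60% against 5.05, 7.08 and 9.96%, and surface ectoderm 5, 5 and 1 of the calls against a share of 4.94, 3.77 and 4.88%, all without overlap. To the left-right organizer, the structure the study was made for, went 0, 1 and 0 barcodes, against 1.33, 0.963 and 1.31% of the reference. In embryos 1 and 3, 0 allows a share of up to 1.10 and 4.68% (exact 95% limits). The exact permutation test of 3 embryos against 3 cannot give a p under 0.1, and no other test of these shares was run.

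**Figure D3:**
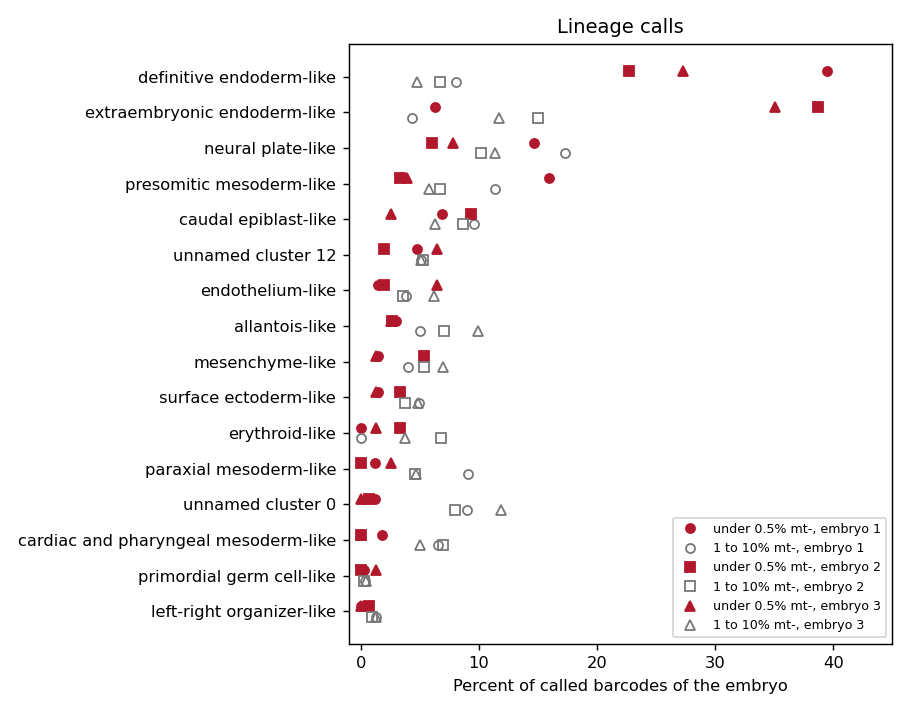
Share of called barcodes given each lineage call, in percent (horizontal axis), with 1 symbol for each embryo, red and filled for low-mitochondrial and grey and open for reference barcodes. Definitive endoderm separates the classes in all embryos (22.7 to 39.5% against 4.77 to 8.05%), and cardiac and pharyngeal mesoderm, with 6, 0 and 0 barcodes, lies under its 5.01 to 6.95% of the reference.

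The markers left out of the calling bore on the calls directly. Here the reference barcodes include the cluster of high doublet scores, which the shares above leave out. Those called extraembryonic endoderm number 275, 1254 and 981 here and 249, 1057 and 847 in the shares. In low-mitochondrial barcodes called definitive endoderm, the 6 definitive endoderm markers summed to 1755, 1437 and 1775 CPM, against 68.8, 113 and 182 CPM in the other called low-mitochondrial barcodes and 1877, 1692 and 1659 CPM in reference barcodes with that call. Sox17, a transcription factor of endoderm, was at 216, 219 and 233 CPM against 10.1, 30.3 and 38.9 CPM in the others. Single markers differed from reference barcodes with that call. Apela was at 733, 625 and 807 CPM against 509, 396 and 411 CPM, and Trh at 307, 182 and 284 CPM against 726, 601 and 624 CPM. Gpx2 was also above and Cpn1 also below that reference in each embryo, while Sox17 and Foxa2 went both ways. In those called extraembryonic endoderm, the 9 markers, led by the transport protein gene Ttr, summed to 14572, 12483 and 17890 CPM, against 316, 291 and 506 CPM in the others and 24567, 25820 and 23667 CPM in the reference with that call. Ttr itself was at 4535, 3817 and 5894 CPM in these barcodes. Their lineage markers were therefore present at levels far over those of the other barcodes, and the extraembryonic ones summed to less than in reference barcodes of the same call, although Apoc1, an apolipoprotein gene among them, was at 288, 227 and 163 CPM against 268, 188 and 228 CPM.

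Other sources left few molecules. Xist, which female cells express, had 0 UMIs in the low-mitochondrial barcodes of all 3 embryos, which allows at most between 0.826 (embryo 1) and 5.60 CPM (embryo 3), while 4 Y-linked genes had 338, 71 and 48 UMIs. The 6 leukocyte markers summed to 6, 2 and 1 UMIs, with Ptprc, Lyz2 and Tyrobp at 0. These came to 1.65, 2.07 and 1.87 CPM against 0.455, 1.06 and 1.00 CPM in the reference. The 6 trophoblast markers summed to 0, 0 and 1 UMIs, with 5 of them at 0. The 6 decidua markers gave 32, 32 and 16 UMIs, of which Tdo2, also a leading gene of the mesenchyme-like reference cluster, gave 16, 21 and 11, and 4 of the 6 were at 0. Their sum was 8.81, 33.0 and 29.8 CPM against 11.9, 27.8 and 19.2 CPM in the reference. Globins, a common free RNA of embryos with primitive blood, came to 0.551, 207 and 5.83 CPM in called barcodes outside erythroid calls, against 0.496, 74.4 and 21.8 CPM in the reference, while 3 further barcodes of embryo 2, 2 not called and 1 called erythroid, held over 5% globin UMIs. The part of free RNA in the results below was not tested.

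Since the classes differ in lineage and depth, each called low-mitochondrial barcode was also compared with 3 reference barcodes of its embryo that had the same call and the nearest depth, 1002, 450 and 231 in all. The matched reference was still deeper, with medians of 16382, 7640 and 7765 nuclear-gene UMIs against 10252, 5553 and 6866, and it had 4.28, 4.72 and 5.00% mt- UMIs. Against all reference barcodes, 614 of 15413 tested genes were higher (3.98%) and 1567 lower (10.2%) at an adjusted p under 0.05. Against the matched reference, 686 of 9901 were higher (6.93%) and 1064 lower (10.7%). The reference sums were far deeper, and less so when matched, so a gene could pass the low-count filter through its reference level alone. The counts of lower genes, and the shares of all genes set beside the lists below, include such genes. How many there were was not counted. With the embryo as a block, 9.95% (1533) were higher and 16.1% (2486) lower in the first comparison, and 21.9% (2165) higher and 24.7% (2443) lower in the second. Scaling by totals in place of TMM gave 274 higher and 2201 lower in the first and 142 and 1664 in the second, as the median of all genes moved from -0.15 to -0.29 and from -0.03 to -0.27. Both comparisons share the low-mitochondrial barcodes, and of the 2181 genes called in the first, 1949 were tested in the second, where 1172 were called in the same direction and 1 in the other. Without embryo 3 the first held 40 higher and 322 lower genes and the second 8 and 46, and without embryo 2 they held 117 and 665, and 70 and 162.

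In the matched comparison Malat1 was at 1159, 850 and 1276 CPM against 3008, 2725 and 2980 CPM (log2 fold change -1.17 ± 0.13, SE, adjusted p = 0.00127, edgeR). Of the 8 nuclear long noncoding RNAs tested, 7 fell and none rose (8 fell with the block), where 10.7% of all genes fell (24.7% with the block). Their median log2 fold change was -1.39 beside -0.03 over all genes. Kcnq1ot1, which silences neighbouring genes on the paternal chromosome and stays at the chromatin (chr7:143203458-143296549, GRCm38), was at 17.4, 24.0 and 61.2 CPM against 283, 199 and 216 CPM (-2.74 ± 0.44, adjusted p = 0.00955). Meg3, an imprinted long noncoding RNA, was at 165, 118 and 264 CPM against 553, 724 and 788 CPM, and Tug1 at 22.9, 15.3 and 21.0 CPM against 54.1, 41.0 and 45.9 CPM, both past the test. Neat1, the scaffold RNA of paraspeckles, named after its value was seen, had 1, 0 and 0 UMIs in the whole class and was too low for the matched test. None of the list passed as higher in either comparison. Summed over the class, these RNAs thus lacked the high level known from nuclei stripped of cytoplasm. A sum cannot show whether some barcodes of the class are such nuclei, and this was not tested. Of the list, 3, 1 and 1 fell without embryo 1, 2 or 3. Leaving out embryo 1 or embryo 3 kept the direction of Malat1 but not its call (-1.23, adjusted p = 0.0683, and -1.26, adjusted p = 0.0509).

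Splicing regulators and CLK kinases, whose transcripts often keep introns and wait in the nucleus, were mixed, with 5 of 24 lower and 2 higher (12 and 3 with the embryo as a block), where 10.7% of all genes were lower and 6.93% higher (24.7 and 21.9% with the block), so the count of higher ones was no result about the list. Srrm2, a scaffold of nuclear speckles, was at 467, 352 and 398 CPM against 755, 744 and 753 CPM and fell (-0.64 ± 0.11, adjusted p = 0.00533, edgeR). Ddx5, an RNA helicase, rose by 0.38 ± 0.08 (adjusted p = 0.0113), but with totals none of the list rose and 11 fell. Chromatin regulators with long transcripts fell in 9 of 29 cases and rose in none (25 fell with the block and 18 with totals), with a median of -0.63. Ankrd11 was at 193, 136 and 155 CPM against 375, 296 and 347 CPM, and Chd4, a nucleosome remodeller, at 288, 186 and 187 CPM against 503, 388 and 439 CPM. Atrx and Bptf had -0.60 and -0.33 and did not pass. Without embryo 2 or embryo 3, at most 1 gene of these lists passed.

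Genes of the cytosol and of translation took a larger share. Of all genes tested, 6.93% rose in the matched comparison, 21.9% with the block and 142 of 9901 with totals. Against all reference barcodes 3.98% rose. Ribosomal protein genes, whose short messages are among the most abundant of these cells, rose in 78 of 81 cases and fell in none, with a median log2 fold change of 0.52, and with totals in place of TMM 53 rose with a median of 0.27. Rps12 was at 5972, 5718 and 6371 CPM against 4693, 4507 and 4846 CPM (0.60 ± 0.06, adjusted p = 5.35e-04, edgeR). The values of single genes of this family are uncertain where reads could match their near-identical copies. Translation factors rose in 18 of 24 cases, such as Eif5a (2398, 2545 and 2490 CPM against 1936, 2019 and 1922 CPM), and Eef1a1 had 0.37 ± 0.22 and did not pass. Proteasome subunits rose in 20 of 26 cases, glycolytic enzymes in 10 of 16, with 2 that fell, and actin, tubulin and related genes in 12 of 20 (20 of 20 with the block). The enolase gene Eno1 was at 1359, 1491 and 1255 CPM against 1004, 924 and 854 CPM, and Tmsb10, which binds actin monomers, at 2434, 1949 and 2353 CPM against 1829, 1264 and 1523 CPM. With totals 5, 2, 4 and 5 genes of these 4 lists rose, and their medians were 0.18, 0.22, 0.24 and 0.28. Against all reference barcodes fewer passed in 4 of these lists: 55 of 82 ribosomal protein genes, 4 of 24 translation factors (1 fell), 3 of 26 proteasome subunits and 2 of 16 glycolytic enzymes (1 fell) rose. The count for the cytoskeleton was 12 of 20 in both comparisons. The matched counts depended on which embryos were kept: 79 ribosomal protein genes rose without embryo 1, 49 without embryo 2 and 6 without embryo 3. The list's median changed little, at 0.48, 0.53 and 0.52 in these fits. Its summed level had a log2 ratio of 0.28, 0.28 and 0.29 in embryos 1, 2 and 3. Of the other 4 lists 19, 21, 10 and 15 genes rose without embryo 1 and at most 2 of each without embryo 2 or 3.

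The nuclear genes for mitochondrial proteins were not used by the rule, which had fixed the low level of the mitochondrial genome's own messages. Of 75 respiratory chain subunits encoded in the nucleus, 35 rose and none fell (63 with the block), with a median of 0.43, and of 74 subunits of the mitochondrial ribosome 21 rose and none fell (65 with the block). Of all genes 6.93% rose, or 21.9% with the block. Atp5g2, a subunit of ATP synthase, was at 1069, 1062 and 981 CPM against 887, 856 and 852 CPM (0.50 ± 0.07, adjusted p = 0.00294, edgeR). These are messages of the cytoplasm, and they reached 0.396 ± 0.0102 and 0.386 ± 0.0123 (SD, n = 3) of the UMIs per reference barcode, beside 0.339 ± 0.00561 for all nuclear genes. With totals 8 and 2 of them rose, with medians of 0.19 and 0.21, where 142 of 9901 genes rose. The 2 of the mitochondrial ribosome were near that share and so no result about the list. Without embryo 2 or embryo 3 at most 1 gene of either list rose.

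**Figure D4:**
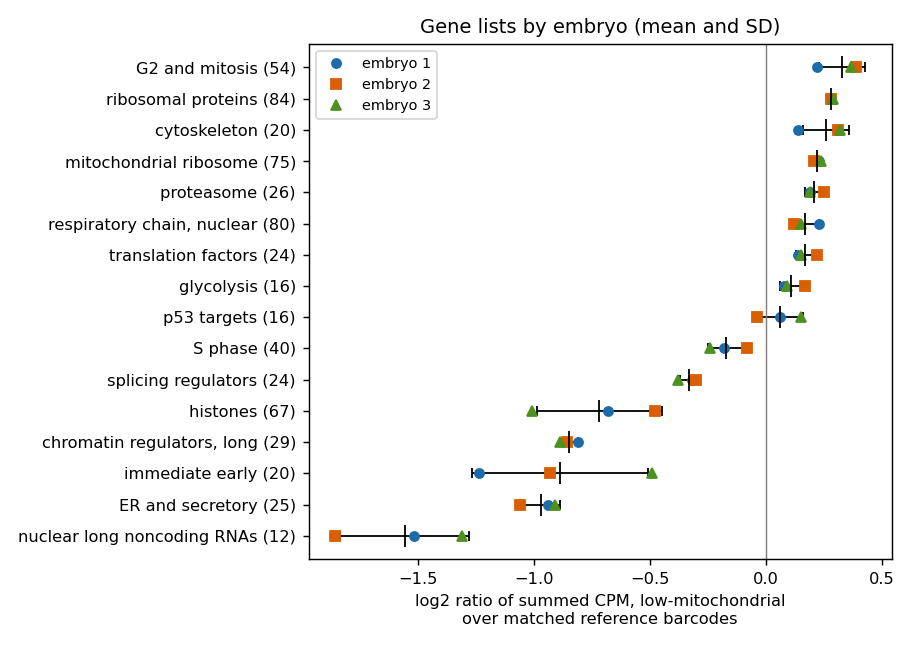
Ratio of the summed CPM of each gene list in low-mitochondrial over matched reference barcodes (horizontal axis, log2, scaled by totals), with 1 symbol for each embryo and the mean and SD of the 3 embryos in black. The number of genes is in parentheses; nuclear long noncoding RNAs lie at -1.56 ± 0.28 and ER and secretory genes at -0.97 ± 0.08, against 0.28 ± 0.01 for ribosomal proteins.

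ER and secretory genes (chaperones, translocon and signal peptidase) were lower than the cytosolic groups in every embryo. Of 25 tested, 16 fell and 2 rose, with a median of -0.96, where 10.7% of all genes fell and 6.93% rose. The count of those that rose was near that share and so no result about the list. With totals 19 fell and 1 rose. Their UMIs per barcode were 0.216 ± 0.0119 (SD, n = 3) of the reference. Without embryo 2 or embryo 3, 9 and 6 of them fell and none rose. Hspa5, the HSP70 chaperone of the ER lumen, was at 223, 205 and 258 CPM against 976, 1078 and 939 CPM (-1.89 ± 0.12, adjusted p = 1.05e-04, edgeR), and Hsp90b1, the HSP90 of the ER, at 316, 296 and 335 CPM against 1397, 1383 and 1327 CPM (-1.88 ± 0.08, adjusted p = 2.61e-05). Calr, a calcium-binding chaperone of the ER, was at 314, 316 and 381 CPM against 944, 957 and 877 CPM. Both that rose, Sec61b and Sec61g, encode small subunits of the translocon that are anchored by their tails: Sec61g was at 822, 878 and 822 CPM against 657, 707 and 702 CPM (0.53 ± 0.09, adjusted p = 0.00426). The values for Hspa5, Hsp90b1 and Calr were nonoverlapping between the classes by a wide margin.

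The cytosolic relatives of the ER chaperones did not pass, and they and Hspa5 were chosen after their values were seen. Hspa8, a cytosolic HSP70, was at 3174, 2902 and 2169 CPM against 3119, 2740 and 2250 CPM (0.27 ± 0.16, adjusted p = 0.291, edgeR), and Hsp90ab1, a cytosolic HSP90, at 7866, 6552 and 6078 CPM against 7803, 6160 and 6060 CPM (0.28 ± 0.11, adjusted p = 0.134). With the block both rose (adjusted p = 8.96e-07 and 4.68e-09). The proteins differ in how they begin, and the first 35 codons of each are shown for that reason. Capitals mark the codons of the 12 residues with the highest mean hydropathy (Kyte-Doolittle scale) within them. They were read from the GENCODE M21 transcripts and begin at chr2 34772322 (plus strand) for Hspa5, chr9 40801923 (plus) for Hspa8, chr10 86705355 (minus) for Hsp90b1 and chr17 45571911 (minus) for Hsp90ab1, in GRCm38.
Hspa5: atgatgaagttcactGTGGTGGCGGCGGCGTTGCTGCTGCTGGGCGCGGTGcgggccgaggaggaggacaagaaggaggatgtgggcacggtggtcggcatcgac
Hspa8: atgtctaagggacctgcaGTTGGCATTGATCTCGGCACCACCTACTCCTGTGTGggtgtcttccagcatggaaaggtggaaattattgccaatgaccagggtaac
Hsp90b1: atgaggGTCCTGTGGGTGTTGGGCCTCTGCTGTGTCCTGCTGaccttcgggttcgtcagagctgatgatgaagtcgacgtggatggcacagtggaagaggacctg
Hsp90ab1: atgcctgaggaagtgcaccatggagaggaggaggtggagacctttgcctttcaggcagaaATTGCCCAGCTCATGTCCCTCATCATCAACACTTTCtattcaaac
The mean hydropathy of the marked window was 2.88 for Hspa5 and 2.94 for Hsp90b1, and 0.95 for Hspa8 and 1.59 for Hsp90ab1.

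All genes with a complete coding sequence were then classed in the same way, a description made after the values were seen. A gene had a hydrophobic N-terminus if that window reached 2.0, as a signal peptide does, or a hydrophobic segment further in if any 19 residues reached 1.8, as a membrane span does. In the matched comparison the median log2 fold change was -0.88 over 1170 genes with a hydrophobic N-terminus, -0.57 over 1169 with a segment further in, and 0.10 over 7379 with neither. Of these, 34.0, 24.5 and 4.80% fell and 0.684, 2.40 and 8.71% rose, beside 10.7% and 6.93% of all genes tested. With totals the medians were -1.13, -0.81 and -0.14, so the direction of the class with neither segment turned, and 9.36% of it fell and 1.83% rose. Genes with a hydrophobic N-terminus were 398 of the 1038 coding genes that fell and 8 of the 679 that rose.

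Transcript length went with the change within each class of protein. Among genes with neither segment, the median log2 fold change was 0.49 for the 416 whose longest annotated transcript is under 1000 bases, -0.03 for the 2270 from 3000 to 5000 bases and -0.60 for the 407 of 8000 bases or more. With a hydrophobic N-terminus it was 0.10 over 54 genes, -1.12 over 332 and -2.14 over 57. Genes that rose had a median longest transcript of 1524 bases, those that fell 4900 and all tested 3097. Spearman's rho between length and log2 fold change was -0.52 over 9718 genes of the matched comparison and -0.41 over 14230 of the other, across genes that share the same 6 libraries. Ribosomal proteins (median 942 bases) and respiratory subunits (863) are short and chromatin regulators (9566) long. Histones are also short (539), with a median log2 fold change of -0.52, and 5 of 27 fell and none rose (11 and 1 with the block, none without embryo 2 or 3), beside 10.7% of all genes that fell (24.7% with the block).

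**Figure D5:**
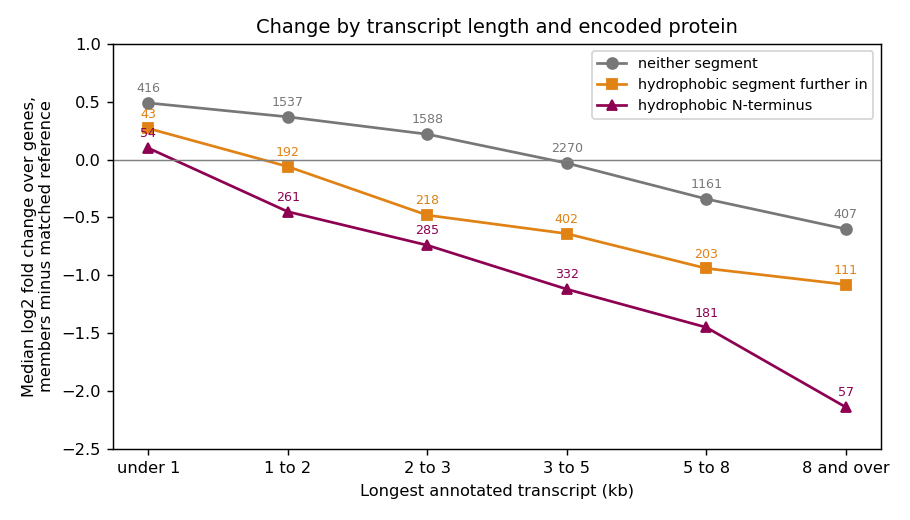
Median log2 fold change of genes (vertical axis, low-mitochondrial minus matched reference barcodes) by length of the longest annotated transcript (horizontal axis, kb), for proteins with a hydrophobic N-terminus, with a hydrophobic segment further in, and with neither. The number at each point counts its genes; all 3 lines fall with length, from 0.49 to -0.60 for neither and from 0.10 to -2.14 for a hydrophobic N-terminus.

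Large single-gene falls by the naming rule included 7 genes whose longest transcripts run from 5741 bases (Diaph1) to 18100 bases (Ahnak), and the immediate early genes Fos and Fosb. Sptbn1, the beta spectrin of the membrane skeleton, was at 11.3, 7.63 and 21.0 CPM against 223, 208 and 226 CPM (-3.94 ± 0.25, adjusted p = 1.06e-04, edgeR). Iqgap1, a scaffold that links actin and signalling, was at 6.89, 6.54 and 9.56 CPM against 133, 92.6 and 112 CPM (-3.73 ± 0.23, adjusted p = 1.05e-04). Iqgap2, the actin cross-linker Flna, the formin Diaph1, Lmo7 and the giant protein gene Ahnak were also lower. None of these 7 is in the class with a hydrophobic segment. The last 5 had between 1 and 34 UMIs per embryo in the class and were tested through their level in the reference, so no fold is given for them. In none of them did the classes overlap, and Actb and Actg1, the actin genes with short messages, rose by 0.37 ± 0.09 and 0.27 ± 0.07 with TMM, although the classes overlapped in CPM.

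Immediate early genes, which are switched on within minutes by stimuli including tissue dissociation, fell in 4 of 16 cases and rose in none (8 fell with the block, and 2, 0 and 2 without embryo 1, 2 or 3), where 10.7% of all genes fell (24.7% with the block). Fos, part of the AP-1 transcription factor, was at 1.10, 1.09 and 0 CPM against 40.1, 38.7 and 11.5 CPM, on 4, 1 and 0 UMIs in the class, so it was tested only through its level in the reference and no fold is given. Fosb was at 0.826, 0 and 5.74 CPM against 41.7, 42.2 and 21.8 CPM. It was likewise tested only through its level in the reference. The count of falls therefore rests partly on the reference level of Fos and Fosb. Jun was at 14.9, 13.1 and 19.1 CPM against 95.5, 57.7 and 31.0 CPM. Ier2 had -0.10 ± 0.18 and did not pass. P53 targets had a median of 0.01, with 1 of 14 higher, Bax, and none lower, a count near the 6.93% of all genes. With the block 3 were higher and 2 lower, near or under the 21.9 and 24.7% of all genes.

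Genes of G2 and mitosis gave most of the 10 largest single-gene rises, though as a list they rose in a smaller share than ribosomal proteins. In the matched comparison 24 of 54 rose and 3 fell (34 and 6 with the block), with a median of 0.50. Of all genes 6.93% rose and 10.7% fell (21.9 and 24.7% with the block). S phase genes had a median of 0.06, with 1 of 40 higher and 2 lower (10 and 9 with the block, near the share of all genes, and a median of -0.19 with totals). Ube2c, which marks cyclins for destruction, was at 758, 705 and 742 CPM against 347, 307 and 307 CPM (1.44 ± 0.09, adjusted p = 1.05e-04, edgeR). Aurka, a kinase of the spindle poles, was at 124, 165 and 126 CPM against 68.4, 58.3 and 56.2 CPM, and Ccnb1, the cyclin of mitotic entry, at 294, 290 and 258 CPM against 159, 142 and 135 CPM. Of the 10 largest rises by the naming rule, Kpna2, Nusap1, Ube2c, Aurka, Psrc1, Ccnb1, Aurkb, Plk1 and Prc1 act in mitosis or nuclear import, and Sapcd2 is the other. Against all reference barcodes the mitotic list's median was 0.15 (0.01 with totals), with 18 of 54 higher and 7 lower, beside 3.98 and 10.2% of all genes. In the matched comparison 15 rose and 5 fell with totals, and 5 and 1 rose without embryo 2 or 3. The matched reference held 9452, 7909 and 7887 CPM of this list against 10548, 9694 and 9748 CPM in all reference barcodes. Thinned to 3000 UMIs, the median low-mitochondrial barcode had 33, 29 and 32 UMIs of it and the median reference barcode 30, 28 and 28.

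Both endodermal lineages were also fitted alone, a comparison added after the data were seen. In definitive-endoderm-like barcodes 6.34% of 10424 genes were higher and 14.9% lower, and in extraembryonic-endoderm-like barcodes 4.78% of 9697 were higher and 13.7% lower. ER and secretory genes fell in 22 of 25 and in 19 of 25 cases, with medians of -0.97 and -0.94, and ribosomal protein genes rose in 55 of 81 and in 27 of 82. Genes of G2 and mitosis were split, with 15 higher and 5 lower in the first and 12 and 11 in the second. Malat1 was at 1627, 1599 and 1564 CPM in definitive-endoderm-like members of the class against 3319, 3024 and 3023 CPM (-0.85 ± 0.11, adjusted p = 8.49e-10, edgeR). In extraembryonic-endoderm-like ones it was at 148, 189 and 783 CPM against 2512, 2378 and 2659 CPM (-2.86 ± 0.57, adjusted p = 0.0379). No Malat1 UMI was found in 19.7, 5.88 and 28.6% of the first and in 71.4, 70.7 and 63.0% of the second, whose median depths were 7889, 5548 and 6190 UMIs and 6361, 4934 and 4838 UMIs. The difference between the lineages in the Malat1 change was 1.92 ± 0.56 and did not pass (adjusted p = 0.509), and 1 gene of 11113 (0.009%) did, or 24 with the embryo as a block.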

How the data were processed

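Per the labels the authors ran Cell Ranger 3.1.0 on mm10, with EGFP added according to the study's methods, and deposited raw UMI counts per feature in each called barcode, 1 file per embryo. Whether intronic reads were counted is not given in the sources used here. Gene positions, lengths and coding sequences came from GENCODE M21 (GRCm38), matched by identifier for 30855 of 31054 features. The members, gene lists and comparisons were chosen with earlier results of these data known, and the text says where a choice followed the values found here.

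Barcodes were taken by the rule with no further filter, and the 13 mt- features were left out of all counts, totals and tests. Summed reference depth was 184562599, 139979175 and 159671231 UMIs, and members' depth 3630194, 968343 and 536072, so embryo 3 carries the least precision. UMIs were summed per embryo and class and tested with edgeR 4.0.16 (R 4.3.3; TMM, filterByExpr, robust glmQLFit, glmQLFTest; Benjamini-Hochberg, 0.05), with no covariate. The embryo as a block, which pairs sums of 1 animal, was an alternative: across genes, deviations of an embryo's 2 sums from their class means correlated at 0.70, 0.50 and 0.27 (0.74, 0.47 and 0.28 when matched). On simulated sums with genes changed 2-fold or 4-fold, 38.7 and 61.6% were recovered for all reference barcodes and 33 and 84.2% when matched, and 8.49 and 5.93% of calls were false.

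Reference barcodes were clustered with Seurat 5.3.0 (2000 variable genes, 30 components, 20 neighbours, Louvain, resolution 0.6, the lowest tried that gave at least 16 clusters, here 17). Clusters were named from fixed markers, and 1 cluster, mostly of high Scrublet scores (scanpy 1.11.5), was left out. Lineage was called by multinomial likelihood with profiles of the other 2 embryos over 50 genes per cluster, with at least 50 UMIs. Doublets were not removed in the main comparison. Genes are named by rule: Malat1, the mt- messages, up to 4 most abundant members of each list, cell markers, and the 10 largest matched changes each way with 1 sign in 3 embryos and at least 20 CPM; 2 genes that the rule names are not reported here. Alternatives were DESeq2 1.42.0, no low-count filter, totals without TMM, mt- features kept, other mt- limits, no high doublet scores, no erythroid calls, lineage-only matching, other calling methods and each embryo left out.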

Additional observations from a re-analysis of the deposited data

Results flagged for a closer look

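A closer look is warranted at 335 barcodes that had under 0.5% mt- UMIs but fewer than 1500 genes and so entered no comparison, 56, 168 and 111 in embryos 1, 2 and 3 of 306, 405 and 322 with so few genes. Their median depth was 1374, 1743 and 1270 UMIs. Malat1 was at 1243, 606 and 570 CPM in them (116, 188 and 94 UMIs), ribosomal proteins took 22.8, 24.2 and 23.0% and ER and secretory genes 0.632, 0.620 and 0.604% of their nuclear-gene UMIs, and globins 5.18, 0.0645 and 3.24%.

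The change between low-mitochondrial and reference barcodes differed between definitive-endoderm-like and extraembryonic-endoderm-like calls for 1 of 11113 genes (edgeR interaction term, adjusted p under 0.05), with 797 genes at an unadjusted p under 0.05. With the embryo as a block 24 genes passed, 11 with a positive and 13 with a negative difference. The gene was Hspd1, a chaperone of the mitochondrial matrix, with a difference of -1.33 ± 0.17 on the log2 scale (definitive minus extraembryonic, adjusted p = 3.33e-06), named after its value was seen.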

How the results depend on the processing

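Malat1 was lower in every alternative run for both comparisons, with log2 fold changes between -0.75 and -1.41, and lost its call only in the matched comparison without replicate 1 or 3. Genes higher and lower numbered 614 and 1567 against all reference barcodes; DESeq2 gave 1421 higher, the embryo as a replicate block 1533 and 2486, and totals without TMM 274 higher. Leaving out 1 embryo gave 40 to 1005 higher and 322 to 1579 lower. In the matched comparison (686 and 1064) the block gave 2165 and 2443, totals 142 and 1664, and leaving out 1 embryo 8 to 1023 higher and 46 to 1396 lower, with matched Malat1 between -1.05 and -1.26. All called genes that could be tested kept their direction under every alternative of both comparisons. Genes differing between the endodermal lineages were 24 with the block and 3 to 10 with 1 embryo left out. Endoderm calls of members kept between 52.8 and 61.8%, and of reference barcodes with 2 to 5% mt- UMIs only 6.87%, since reference extraembryonic endoderm had medians of 7.57, 5.99 and 6.81% mt- UMIs. Of 399 list medians, 287 stayed within the spread between embryos, and 12 changed sign. In 3 of these the main value itself lay beyond that spread: glycolysis with totals against all reference barcodes (-0.03), noncoding RNAs known from the cytoplasm with totals (-0.16, matched) and globins with 1 embryo left out (-1.3 without replicate 2, to 2.95 without replicate 3, matched). Of the others, globins went from 0.81 to -3.13 against all reference barcodes without replicate 2, S phase genes from 0.06 to -0.19 (totals) and -0.01 (without replicate 1) when matched, and p53 targets, at 0.03 and 0.01, to between -0.24 and -0.02 in 6 alternatives. The cause was not tested. The embryo 3 sum of 79 barcodes limits the depth.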
